A study of Mus musculus with 18 samples.

Results

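Control lungs from mice with abdominal sepsis were compared with control livers and control intestines from the same series. The 9 libraries came from male C57BL/6 mice aged 9 weeks that had undergone cecal ligation and puncture (CLP), an operation that ties off and pierces the cecum so that gut bacteria leak into the abdomen. The groups were control lung (n = 3), control liver (n = 3) and control intestine (n = 3), all collected 24 hours after the operation. They make up 9 of the 18 libraries of the series. The other 9, from CLP mice that inhaled 7% H2, were not used. "Control" therefore means septic without hydrogen, and every value below is from a septic mouse. Sham-operated mice were not analysed here, so that a difference between organs and the response of an organ to sepsis cannot be told apart. The labels do not say which organs came from the same mouse, whether the 3 libraries of an organ stand for separate mice, or which lobe or gut segment was taken. The p-values measure only the spread between these libraries.

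The lung exchanges gas across a thin wall made of flat alveolar type 1 cells and capillary endothelium. Alveolar type 2 cells make surfactant, the film of phospholipids and proteins that keeps alveoli from collapsing. The conducting airways are lined by club cells, which secrete secretoglobins, and by ciliated cells, which move mucus. In sepsis the lung is a common site of organ failure: neutrophils gather in its capillaries, endothelium is activated and fluid leaks into the air spaces. The liver makes most plasma proteins, acute phase proteins among them, and the intestine absorbs fat and sugar and is guarded by Paneth cells, which secrete antimicrobial peptides.

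Expression was deposited as FPKM, the fragments mapped to a gene divided by its length and by the mapped fragments of the library, for 24346 gene symbols per library, of which 5184 were at 0 in all 9 libraries. The 13238 symbols with a mean of at least 1 FPKM over the 9 libraries were tested on log2(FPKM + 1) with limma, in 1 fit over all 9 libraries, and differences are given as lung minus the other organ with their standard error. A fold change on this scale understates the change of low genes. A gene was called higher or lower "against each organ" where both the difference from liver and that from intestine had the same sign and a Benjamini-Hochberg adjusted p under 0.05. FPKM sums were 824667 to 839264 in lung, 786126 to 827208 in liver and 712858 to 739194 in intestine, and the steps between the lowest values correspond to about 10300000 to 12900000 fragments per library, with lung library 1 at 10300000, lung library 2 at 12900000 and lung library 3 at 12200000. Across the tested genes, log2 values of lung libraries correlated at 0.933 to 0.960 with each other and at 0.535 to 0.596 with the other organs (Pearson, over genes, which are not independent replicates). Gene lists named below can share members. A gene that passed the filter through its lung level alone had to differ, so a count of higher genes among the tested members of a lung cell list is a description.

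The level of the typical gene moved with the organ. The 10 highest symbols held 29.0 to 31.5% of the FPKM sum in lung, 40.4 to 45.8% in liver and 29.4 to 33.0% in intestine. The median tested gene was 1.18 higher in lung than in liver and 0.45 higher than in intestine on the log2 scale, and a median-of-ratios scaling brought these medians to 0.02 and -0.03. A call was therefore also read under 3 other scalings (TPM, median of ratios and quantile normalization). "Under all 4 scalings" means that it held in each of them and on FPKM, a joint requirement chosen after the data were seen. In bulk tissue, fewer cells of a type and less RNA per cell cannot be told apart.

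On FPKM, 5800 genes were higher in lung against each organ, which is 43.8% of the genes tested, and 421 were lower, which is 3.18%. Under median-of-ratios scaling the split was 2669 higher (20.2%) against 1903 lower (14.4%). Under all 4 scalings it was 2287 higher (17.3%) and 420 lower (3.17%). Against the mean of both organs with the same sign against each, 7902 genes were higher (59.7%) and 868 lower (6.56%). At least 4-fold differences against each organ were called for 1413 genes higher (10.7%) and 118 lower (0.891%), and under all 4 scalings for 646 higher (4.88%) and the same count lower. All 3 lung libraries lay above all 6 others for 6184 genes (46.7%) and below them for 510 (3.85%). Genes above liver and below intestine numbered 1073 (8.11%), and those below liver and above intestine numbered 241 (1.82%).

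**Figure D1:**
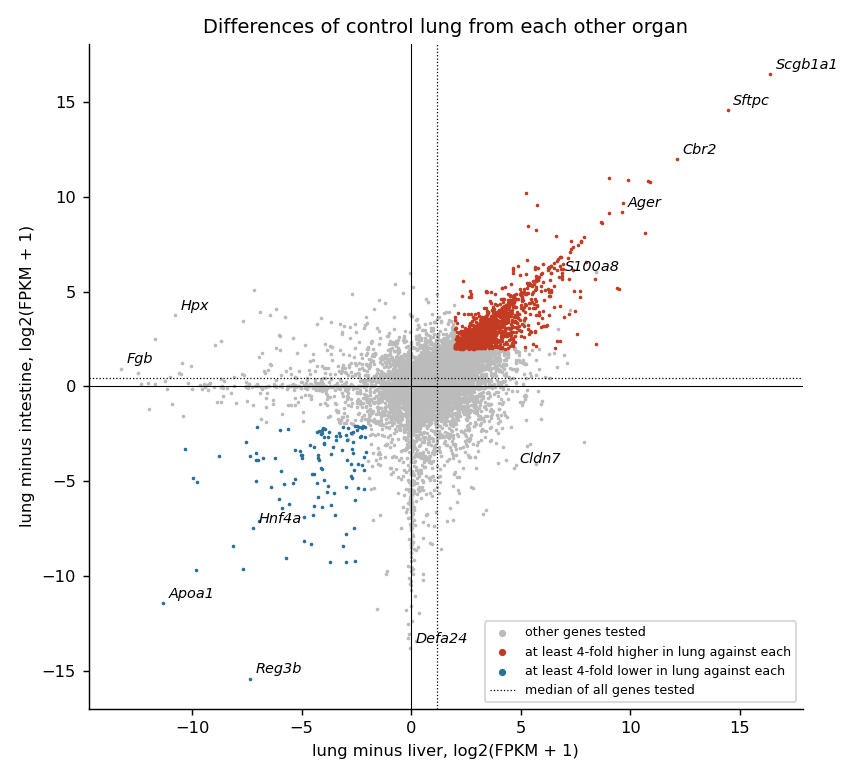
Each point is 1 of 13238 tested genes, with the lung minus liver difference in log2(FPKM + 1) on the horizontal axis and the lung minus intestine difference on the vertical axis. Red marks 1413 genes at least 4-fold higher in lung against each organ, blue marks 118 at least 4-fold lower, and the dotted lines at 1.18 and 0.45 are the medians of all genes tested, so the cloud is centred to the right of and above 0.

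The 3 genes with the largest excess in lung encode 2 secreted proteins and 1 enzyme. Scgb1a1 (chromosome 19, bases 9083636 to 9087958, mm10), which encodes club cell secretory protein, had 144854, 146703 and 153397 FPKM in lung, against 4.303, 0 and 0 FPKM in liver and 3.22, 0 and 0 FPKM in intestine. It alone held 17.3 to 18.4% of the summed lung FPKM, and the number 1 libraries of liver and intestine were the only others above 0. Sftpc (chromosome 14, bases 70520949 to 70524081), which encodes a surfactant protein made by type 2 cells, had 20779, 32835 and 33492 FPKM in lung, against 1.13, 0 and 0 FPKM in liver and 0.562, 0 and 0 FPKM in intestine, a difference of 14.43 ± 0.33 from liver (limma, adjusted p = 2.47e-09) and 14.58 ± 0.33 from intestine (adjusted p = 1.69e-09). Cbr2, a carbonyl reductase abundant in mouse lung, had 4906, 6861 and 5997 FPKM in lung, against 0.275, 0.752 and 0 FPKM in liver and 0.206, 0.839 and 0.319 FPKM in intestine. These 3 genes were spread little among the lungs beside their distance from the other organs.

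The 15 genes to be named at the top had every lung library above every other library, as a condition of choice. They were ranked by the smaller of their differences from liver and from intestine, and the other 12 follow. Sftpb, needed for surfactant to spread, had 1718, 1840.5 and 2289 FPKM in lung, against 0.058, 0 and 0 FPKM in liver and 0.13, 0.053 and 0.128 FPKM in intestine. Sftpa1 and Sftpd, the collectins of surfactant that bind microbes, had 1712, 1999.9 and 2185 FPKM and 2404, 1912 and 1836 FPKM in lung. Both collectins were low but detected in liver, at 1.39, 0.355 and 1.83 FPKM for Sftpa1 and 3.201, 2.05 and 3.64 FPKM for Sftpd, and Sftpd was listed at 0 in all 3 intestines. Scgb3a2, another secretoglobin, had 1431, 1839 and 2254 FPKM in lung and was listed at 0 in all 6 other libraries. The same held for the airway antimicrobial protein Bpifa1, at 485, 1028 and 1065 FPKM, and for the lipid-binding Sec14l3, at 118, 309 and 346 FPKM. Both of these were lowest in lung library 1. Scgb3a1 had 1476, 1693 and 2065 FPKM in lung, against 0.184, 0 and 0 FPKM in liver and 3.07, 5.41 and 8.66 FPKM in intestine, so a trace was present in every intestine. Ager, the receptor for advanced glycation end products and a marker of type 1 cells, had 809, 898 and 893 FPKM in lung, against 0.19, 0 and 0.144 FPKM in liver and 0.79, 0.364 and 0.3 FPKM in intestine. The chemokine Cxcl15, called lungkine in mice, had 346, 339.8 and 589 FPKM in lung, against 0 in all 3 liver libraries and 0, 0.071 and 0.045 FPKM in intestine. Cxcl17, a mucosal chemokine, had 262, 201 and 184 FPKM in lung, and the surfactant-associated Sfta2 had 162, 234 and 253 FPKM. Retnla, a resistin-like protein of airway epithelium and alternatively activated macrophages, had 1900.3, 563 and 447 FPKM in lung, against 0.574, 0.79 and 0.211 FPKM in liver and 0.858, 0.175 and 0.222 FPKM in intestine. Lung library 1 held the highest Retnla level by a wide margin.

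Among the 5 genes with the highest mean level in lung, 2 were the secretoglobin and surfactant genes above and 3 were genes of inflammation. S100a8 and S100a9 encode calprotectin, the main cytosolic protein of neutrophils. S100a8 had 8986, 11322 and 15149 FPKM in lung, against 178, 57.98 and 118 FPKM in liver and 518, 70.8 and 237 FPKM in intestine, and S100a9 had 8878, 9789 and 12735 FPKM in lung, against 144, 56.8 and 80.5 FPKM in liver and 534, 49.03 and 152 FPKM in intestine. The groups did not overlap for either gene. Saa3, a serum amyloid A made outside as well as inside the liver, had 22839, 8211 and 10283 FPKM in lung, against 18917, 32720.4 and 24259 FPKM in liver and 3522, 2979 and 3031 FPKM in intestine. It was lower in lung than in liver (-0.99 ± 0.35, limma adjusted p = 0.0236) and higher than in intestine (1.97 ± 0.35, adjusted p = 0.000817), while lung library 1 lay within the range of the livers.

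**Figure D2:**
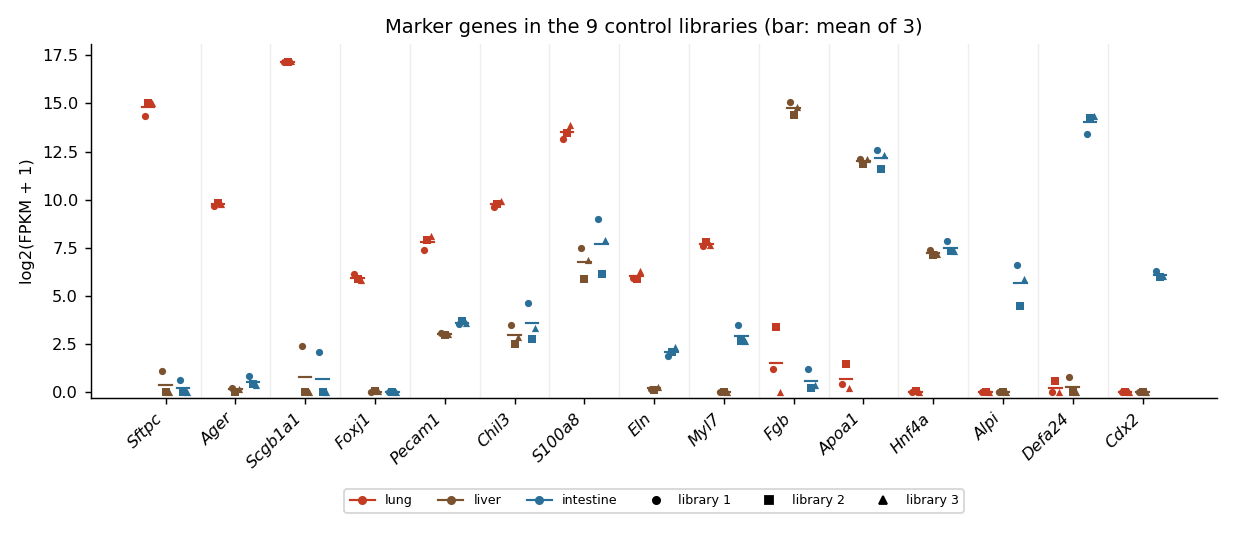
log2(FPKM + 1) of 15 marker genes in the 3 control lungs (red), 3 control livers (brown) and 3 control intestines (blue), with a symbol per library number and a bar at the mean of 3. Scgb1a1 and Sftpc stood near the top of the scale in lung and near 0 elsewhere, while Apoa1 and Hnf4a were shared by liver and intestine and near 0 in lung.

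Promoter sequence is shown for 3 of these lung genes, chosen after the search for holding a match, to set beside that of genes low in lung further on. Each run is the 250 bases upstream of the RefSeq transcription start in GRCm38.p6, written 5′ to 3′ on the strand of the gene, and capitals mark matches to 1 of 3 motif letter strings searched on both strands. The strings were CACTNNAG for NKX2-1, TGTTTNC for FOXA and TTGCNNAA for C/EBP, and a promoter was counted once however many matches it held. The same letters can be bound by related factors, so a match names no factor. NKX2-1 and FOXA factors are known to bind promoters of surfactant and secretoglobin genes, and FOXA and C/EBP factors also those of liver genes.
Sftpb, chr6:72304360-72304609, plus strand: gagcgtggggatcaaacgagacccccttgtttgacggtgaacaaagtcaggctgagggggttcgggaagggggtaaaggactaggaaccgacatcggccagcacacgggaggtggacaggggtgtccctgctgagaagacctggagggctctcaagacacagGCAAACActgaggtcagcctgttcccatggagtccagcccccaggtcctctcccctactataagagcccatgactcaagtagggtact
Cxcl15, chr5:90794284-90794533, plus strand: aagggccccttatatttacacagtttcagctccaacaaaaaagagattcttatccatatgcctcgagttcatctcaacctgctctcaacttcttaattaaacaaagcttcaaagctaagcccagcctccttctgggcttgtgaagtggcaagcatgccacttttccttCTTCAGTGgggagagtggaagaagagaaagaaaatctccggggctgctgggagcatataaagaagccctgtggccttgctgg
Scgb3a1, chr11:49663345-49663594, plus strand: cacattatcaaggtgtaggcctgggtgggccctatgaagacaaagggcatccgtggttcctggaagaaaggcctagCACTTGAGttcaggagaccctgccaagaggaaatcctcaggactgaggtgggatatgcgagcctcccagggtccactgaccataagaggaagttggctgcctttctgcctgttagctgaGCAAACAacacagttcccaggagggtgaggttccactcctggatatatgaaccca
The capitals in Sftpb are a FOXA string on the opposite strand, whose first printed base lies 88 bases upstream of the start. In Cxcl15 they are an NKX2-1 string on the opposite strand 82 bases upstream. Scgb3a1 held an NKX2-1 string 174 bases upstream and a FOXA string on the opposite strand 55 bases upstream. Of the 15 top lung genes 10 had a promoter in the table, and 5 of these held no match, Sftpa1 and Ager among them. The NKX2-1 string stood in 2 of these 10 and in 3 of the 10 with a promoter among the 12 genes lowest in lung. It was found in 12.4% of the promoters of genes at least 4-fold higher in lung (127 of 1025 with a promoter in the table), in 8.51% of those at least 4-fold lower (8 of 94) and in 11.2% of all tested genes (1120 of 10010). It stood in 12.7% of all 27025 RefSeq promoters, so such a string is common and its presence is only a description.

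Type 2 cell genes were high in lung together. Of 15 listed type 2 genes tested, 14 were higher against each organ and none lower, all 14 under all 4 scalings. Their median difference was 7.39 against liver and 6.57 against intestine. By comparison, 43.8% of all genes tested were higher (17.3% under all 4 scalings) and 3.18% lower. Lyz2, the lysozyme of macrophages and type 2 cells, had 3738, 3822 and 5923 FPKM in lung, against 18.9, 17.6 and 13.9 FPKM in liver and 21.1, 89.3 and 48.9 FPKM in intestine, although reads can be shared with its copy Lyz1. The member that did not pass was Fabp5, a fatty acid binding protein, at 144 to 261 FPKM in lung, 26.6 to 359 FPKM in liver and 29.4 to 33.7 FPKM in intestine. Of 16 genes of surfactant handling, 14 were higher. Lamp3, a protein of lamellar bodies, had 131 to 197 FPKM in lung, and the lipid pump Abca3 had 36.3 to 44.1 FPKM in lung, 2.52 to 4.09 FPKM in liver and 5.69 to 6.93 FPKM in intestine. The 2 that did not pass were the general enzymes of phosphatidylcholine synthesis, Pcyt1a and Chpt1. Chpt1 had 47.9 to 70.2 FPKM in lung, 39.1 to 54.2 FPKM in liver and 31.4 to 39.5 FPKM in intestine.

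Type 1 cell genes gave the same count, 14 of 15 higher and none lower, all 14 under all 4 scalings. Their median difference was 5.49 against liver and 4.34 against intestine. For all genes tested the shares were 43.8% higher (17.3% under all 4 scalings) and 3.18% lower. Hopx, a homeodomain protein of type 1 cells, had 687, 1007 and 835 FPKM in lung, against 49.9, 49.6 and 37.3 FPKM in liver and 26.4, 41.5 and 43.9 FPKM in intestine. Emp2, a membrane protein of type 1 cells, had 158 to 243 FPKM in lung, 0.652 to 1.06 FPKM in liver and 2.76 to 3.44 FPKM in intestine. Cav1, the coat protein of caveolae in type 1 and endothelial cells, had 79.8, 276 and 504 FPKM in lung and was lowest in library 1. Its level was 0.175 to 0.378 FPKM in liver and 10.4 to 16.3 FPKM in intestine. Igfbp2 was the member without a call, at 20.96 to 54.9 FPKM in lung, 23.4 to 71.3 FPKM in liver and 0.077 to 0.183 FPKM in intestine.

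In the conducting airway lists, 12 of 14 secretory genes were higher (11 under all 4 scalings), beside 43.8% and 17.3% of all genes. None was lower against each organ. The exceptions were the lectin Reg3g and the haptoglobin gene Hp, both of which other organs made in larger amounts. Hp had 3189.8, 1626 and 1876 FPKM in lung, against 27491, 26210.0 and 26559 FPKM in liver and 172, 229 and 197 FPKM in intestine. Muc5b, the gel-forming mucin of small airways, had 30.7, 18.2 and 8.04 FPKM in lung, and Muc5ac was at 0.161 to 0.578 FPKM and below the filter. Ciliated cell genes summed to 732 to 945 FPKM in lung, 2.46 to 3.19 FPKM in liver and 7.52 to 13.1 FPKM in intestine. Of 15 listed, 13 passed the filter, through their lung level, and these were higher under all 4 scalings, a count that the filter fixed in large part. Foxj1, the master regulator of motile cilia, had 70.1, 58.2 and 55.7 FPKM in lung, against 0, 0.032 and 0.034 FPKM in liver and 0 in all 3 intestine libraries. The dynein light chain Dynlrb2 had 161, 146 and 195 FPKM and Ccdc153 106, 118 and 120.2 FPKM in lung, and both were listed at 0 in all 6 other libraries. Tppp3, a tubulin-binding protein, had 221 to 334 FPKM in lung, 0.399 to 0.731 FPKM in liver and 5.43 to 11.4 FPKM in intestine.

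Most genes of basal and neuroendocrine cells were low in lung, and Calca was the exception. Krt5, the basal cell keratin, was at 0, 0.07 and 0.225 FPKM in the lungs and below the filter. Only 1 of 6 tested genes of this list was higher against each organ, also under all 4 scalings, beside 43.8% and 17.3% of all genes tested. It was Calca, which encodes the neuropeptide CGRP, at 19.4, 17.9 and 11.5 FPKM in lung, against 0 in all 3 liver libraries and 3.73, 0.189 and 1.498 FPKM in intestine. Chga, the granin of endocrine cells, had 0.166 to 0.355 FPKM in lung, 0 in all 3 liver libraries and 21.2 to 42.3 FPKM in intestine. Pcsk1 and Scg5, secretory granule genes, likewise lay below intestine and near the level of liver, and Resp18 had 2.08 to 3.55 FPKM in lung, 0 in all 3 liver libraries and 3.499 to 7.07 FPKM in intestine. Trp63, the basal cell factor, was at 0.535, 0.744 and 0.467 FPKM in lung and 3.59, 1.46 and 3.72 FPKM in liver.

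Transcription factors of lung development were high in lung. Of 17 tested, 13 were higher against each organ (11 under all 4 scalings), 1 was lower and the others were not called or went opposite ways. The shares of all genes tested were 43.8% higher (17.3% under all 4 scalings) and 3.18% lower. Nkx2-1, the factor that specifies lung epithelium, had 43.2, 59.5 and 61.7 FPKM in lung, against 0, 0.037 and 0 FPKM in liver and 0.081, 0.133 and 0.126 FPKM in intestine. Foxf1, a factor of lung mesenchyme and endothelium, had 76.8 to 113 FPKM in lung, 0.366 to 0.471 FPKM in liver and 8.06 to 9.72 FPKM in intestine. Elf5, Tbx5, Irx1 and Irx2 were near 0 elsewhere, and Elf5 and Tbx5 were listed at 0 in every liver and intestine. The factor that was lower was Sox9, a marker of the developing lung tip and of ducts and crypts in the adult, at 0.377, 0.689 and 0.132 FPKM in lung, against 10.9, 7.79 and 13.9 FPKM in liver and 3.93, 4.73 and 4.09 FPKM in intestine. Cebpa, shared with liver, had 38.9 to 65.4 FPKM in lung, 42.8 to 63.6 FPKM in liver and 23.6 to 32.5 FPKM in intestine.

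**Figure D3:**
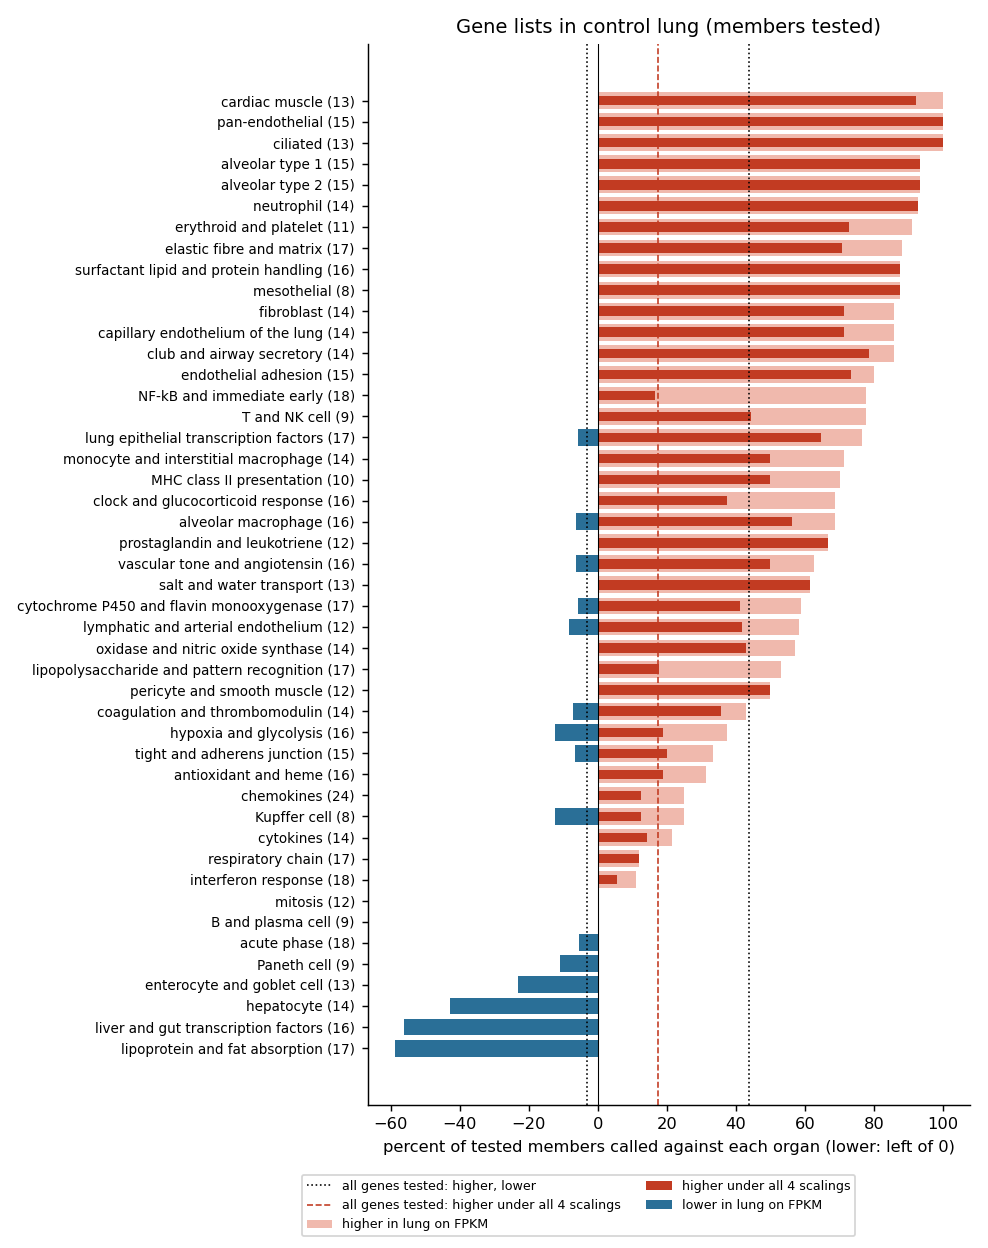
For each gene list drawn (number of members tested in brackets), the bar to the right gives the percent of members higher in lung against each organ on FPKM (pale) and under all 4 scalings (dark red), and the blue bar to the left of 0 gives the percent lower. Lists with few tested members, the basal and neuroendocrine list among them, are not drawn. The dotted lines mark 43.8% higher and 3.18% lower among all genes tested, and the dashed line marks 17.3% higher under all 4 scalings. The alveolar, ciliated, pan-endothelial, neutrophil and cardiac lists reach past both lines, and lipoprotein and liver and gut factor lists have members on the lower side only.

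Genes of salt and water movement across the alveolar wall were a mixed group. Of 13 tested, 8 were higher against each organ, all under all 4 scalings, and none lower, beside 43.8% and 17.3% higher among all genes tested. The 3 subunits of the epithelial sodium channel, which clears fluid from air spaces, were higher. Scnn1a had 205, 181 and 118 FPKM in lung, against 0.906, 1.62 and 0.862 FPKM in liver and 6.99, 2.49 and 3.79 FPKM in intestine, Scnn1b had 54.5, 55.8 and 51.9 FPKM in lung and 0 in all others, and Scnn1g had 50.96, 63.8 and 40.4 FPKM in lung. Aqp5 and Aqp1 encode water channels. Aqp5, of type 1 cells, had 136, 193 and 134 FPKM in lung and was listed at 0 in every liver. Aqp1, of microvessels, had 581, 406 and 242 FPKM in lung, against 7.57, 22.4 and 14.4 FPKM in liver and 23.4, 33.98 and 33.4 FPKM in intestine, with the lowest lung level in library 3. Atp1b1, a subunit of the sodium pump, was not higher against each organ and lay at 347, 378 and 275 FPKM in lung and 399, 346 and 385 FPKM in intestine. Cftr, the chloride channel, was at 2.38, 2.47 and 2.11 FPKM in lung, above liver and below the 19.2, 20.4 and 24.2 FPKM of intestine.

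Of 15 junction genes tested, 5 were higher (3 under all 4 scalings) and 1 lower against each organ, beside 43.8%, 17.3% and 3.18% of all genes. Cldn18, the claudin of alveolar epithelium, had 93.3, 115 and 88.9 FPKM in lung and 0 in all 6 other libraries. Cldn5, the claudin of endothelium, had 763, 605 and 272 FPKM in lung, against 2.78, 1.89 and 2.08 FPKM in liver and 2.22, 0.96 and 1.29 FPKM in intestine. Cldn2, which forms a pore for cations and water in leaky epithelia, was the lower one, at 0.883 to 10.1 FPKM in lung, 55.1 to 94.6 FPKM in liver and 137 to 156 FPKM in intestine. Cldn3, a claudin of several epithelia, had 116 to 137 FPKM in lung, 29.04 to 46.5 FPKM in liver and 188 to 213 FPKM in intestine, and its difference from the mean of both organs turned sign under median-of-ratios and quantile scaling. Cdh1, the epithelial cadherin, had 69.3 to 111 FPKM in lung, above liver and below intestine.

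All 15 pan-endothelial genes were higher in lung against each organ under all 4 scalings, beside 17.3% of all genes tested. Their median difference was 4.07 against liver and 3.90 against intestine. Pecam1, the junctional adhesion molecule CD31, had 168, 239 and 276 FPKM in lung, against 7.38, 6.904 and 7.24 FPKM in liver and 10.8, 11.8 and 11.3 FPKM in intestine. Cdh5, the cadherin of endothelial junctions, had 142 to 219 FPKM in lung, 4.16 to 13.2 FPKM in liver and 3.45 to 10.3 FPKM in intestine. Egfl7 and Esam, both secreted or junctional proteins of endothelium, had 222 to 355 FPKM and 143 to 173 FPKM in lung. Of 14 tested genes of lung capillaries, 12 were higher (10 under all 4 scalings), beside 43.8% and 17.3% of all genes, and none lower. Gpihbp1, which tethers lipoprotein lipase to capillaries, had 122 to 223 FPKM in lung, 6.71 to 10.96 FPKM in liver and 2.78 to 5.29 FPKM in intestine. Tmem100, a target of BMP signalling in endothelium, had 139 to 220.1 FPKM in lung, 0.685 to 1.67 FPKM in liver and 1.27 to 5.28 FPKM in intestine. Hilpda, a lipid droplet protein induced by low oxygen, had 92.5 to 259 FPKM in lung, 11.8 to 18.9 FPKM in liver and 6.32 to 17.7 FPKM in intestine, with lung library 3 highest. Car4, a carbonic anhydrase of lung capillaries, was above liver and below intestine, at 72.7 to 154 FPKM in lung, 2.65 to 12.6 FPKM in liver and 347 to 572 FPKM in intestine.

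Of 12 lymphatic and arterial genes, 7 were higher (5 under all 4 scalings) and 1 lower, beside 43.8%, 17.3% and 3.18% of all genes tested. Lyve1, the hyaluronan receptor of lymphatics and of liver sinusoids, had 1089, 579.8 and 118 FPKM in lung, against 38.5, 9.16 and 34.6 FPKM in liver and 11.3, 8.13 and 12.8 FPKM in intestine. Its level in lung library 3, the lowest lung, was still above every other library. The lower gene was Prox1, a factor of lymphatics and of hepatocytes, at 0.189 to 0.266 FPKM in lung, 11.7 to 15.5 FPKM in liver and 0.59 to 0.873 FPKM in intestine. Efnb2, an arterial ephrin, had 25.8 to 38.3 FPKM in lung, 0.354 to 0.598 FPKM in liver and 20.9 to 26.8 FPKM in intestine, and Cxcl12, the chemokine that retains leukocytes in marrow, had 22.5 to 44.1 FPKM in lung, 27.1 to 58.7 FPKM in liver and 8.81 to 19.5 FPKM in intestine.

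Genes of vascular tone were higher for 10 of 16 (8 under all 4 scalings) and lower for 1, beside 43.8%, 17.3% and 3.18% of all genes tested. The receptor for adrenomedullin and CGRP is built of Calcrl and Ramp2. Ramp2 had 152, 364 and 776 FPKM in lung, against 6.18, 5.995 and 5.16 FPKM in liver and 4.54, 5.65 and 5.61 FPKM in intestine, and Calcrl had 26.8 to 300.2 FPKM in lung, 2.14 to 3.19 FPKM in liver and 2.42 to 4.51 FPKM in intestine. Both were highest in lung library 3 and lowest in library 1. Eng, the TGF-beta co-receptor endoglin, had 116 to 136 FPKM in lung, 7.54 to 10.5 FPKM in liver and 5.501 to 7.99 FPKM in intestine. Ace, the angiotensin-converting enzyme of lung capillaries and of gut brush border, had 68.5, 144 and 342 FPKM in lung, against 0.332, 0.56 and 0.665 FPKM in liver and 73.9, 71.7 and 77.4 FPKM in intestine, and its difference from intestine did not pass (1.01 ± 0.46, limma adjusted p = 0.0821). Agt, the precursor angiotensinogen made by liver, was the lower gene, at 1.76 to 2.73 FPKM in lung, 201 to 655 FPKM in liver and 5.35 to 6.898 FPKM in intestine. Its call was lost without lung library 1 or 2 or without intestine library 1 or 3, when 0 genes of the list were lower.

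Of 14 genes of clotting and its control at the vessel wall, 6 were higher (5 under all 4 scalings) and 1 lower. On FPKM that is close to the 43.8% higher of all genes tested. F3, tissue factor, had 64.04 to 103 FPKM in lung, 0.411 to 1.56 FPKM in liver and 14.3 to 23.3 FPKM in intestine. Thbd, thrombomodulin, had 70.6, 97.2 and 176 FPKM in lung, against 12.7, 5.26 and 13.4 FPKM in liver and 9.74, 2.002 and 5.67 FPKM in intestine. Plaur, the urokinase receptor, had 57.7 to 228 FPKM in lung, 1.93 to 15.8 FPKM in liver and 7.87 to 34.9 FPKM in intestine, and Plat, tissue plasminogen activator, had 385, 248 and 44.6 FPKM in lung, against 1.18, 0.065 and 0.449 FPKM in liver and 70.05, 12.5 and 30.8 FPKM in intestine. For Plat, lung library 3 lay between intestine libraries 1 and 3, so the groups overlapped although the test passed on FPKM. Tfpi2, a matrix protease inhibitor, was the lower gene, at 0.628 to 3.96 FPKM in lung, 28.6 to 41.97 FPKM in liver and 5.15 to 8.77 FPKM in intestine.

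Adhesion of leukocytes to endothelium was represented by 15 genes, of which 12 were higher (11 under all 4 scalings) and none lower. By comparison, 43.8% of all genes tested were higher (17.3% under all 4 scalings) and 3.18% lower. Icam1, the ligand of leukocyte integrins, had 429, 233 and 171 FPKM in lung, against 31.1, 31.7 and 38.6 FPKM in liver and 23.7, 14.6 and 14.5 FPKM in intestine. Its integrin partners Itgb2 and Itgam had 58.3 to 165 FPKM in lung, 4.87 to 7.87 FPKM in liver and 5.53 to 10.6 FPKM in intestine for the beta chain and 55.3 to 196 FPKM in lung, 4.94 to 6.85 FPKM in liver and 11.6 to 22.2 FPKM in intestine for the alpha chain. The groups did not overlap for these 3 genes. The selectins of activated endothelium did not pass: Sele had 1.51 to 11.5 FPKM in lung, 0.197 to 1.798 FPKM in liver and 0.58 to 2.37 FPKM in intestine, and Selp had 5.77 to 41.4 FPKM in lung, 2.68 to 14.8 FPKM in liver and 7.69 to 15.1 FPKM in intestine. For both selectins lung library 3 lay within the range of the other organs. Angpt1, which steadies vessels through the receptor Tek, was higher at 4.38 to 19.99 FPKM in lung, while its rival Angpt2 had 6.17, 3.24 and 1.99 FPKM and was not called.

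Fibroblast genes were higher for 12 of 14 (10 under all 4 scalings) and none was lower, beside 43.8%, 17.3% and 3.18% of all genes. Inmt, a methyltransferase of lung fibroblasts, had 368, 913 and 1536 FPKM in lung, against 63.9, 1.22 and 23.9 FPKM in liver and 0, 0.084 and 0.106 FPKM in intestine. Gsn, the actin-severing gelsolin, had 681 to 918 FPKM in lung, 2.17 to 4.21 FPKM in liver and 94.3 to 147 FPKM in intestine. Ces1d, a carboxylesterase of lipofibroblasts, had 417 to 611 FPKM in lung, 0.736 to 24.98 FPKM in liver and 5.07 to 5.899 FPKM in intestine. Dcn, the proteoglycan decorin, differed little, at 269.9 to 305 FPKM in lung, 107 to 156 FPKM in liver and 129 to 183 FPKM in intestine, and its call did not hold under all scalings. Of 17 genes of elastic fibres and matrix, 15 were higher (12 under all 4 scalings), beside 43.8% and 17.3% of all genes tested. Eln, elastin, had 60.7, 57.2 and 78 FPKM in lung, against 0.146, 0.106 and 0.204 FPKM in liver and 2.69, 3.25 and 4.04 FPKM in intestine. Lox, which cross-links elastin, had 73.5 to 108 FPKM in lung, 0.249 to 0.552 FPKM in liver and 5.86 to 6.77 FPKM in intestine. Mfap4, a microfibril protein, had 99.1 to 185 FPKM in lung, 0.062 to 0.229 FPKM in liver and 0.897 to 2.67 FPKM in intestine, and Npnt, a basement membrane protein, had 56.3 to 62.4 FPKM in lung.

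In the joint list of pericytes and smooth muscle 6 of 12 were higher, all under all 4 scalings, beside 43.8% and 17.3% of all genes tested. On FPKM this share lies near that of all genes. The count was 9 without intestine library 2. Cox4i2, a respiratory subunit found in lung and pericytes, had 52.6 to 76.7 FPKM in lung, 0 to 0.148 FPKM in liver and 0.161 to 1.05 FPKM in intestine. Postn, the matrix protein periostin, had 43.8 to 61.3 FPKM in lung, 0.78 to 2.17 FPKM in liver and 6.63 to 9.81 FPKM in intestine. Tagln, a smooth muscle actin-binding protein, had 63.9 to 109 FPKM in lung, 0.774 to 1.62 FPKM in liver and 37.7 to 99.97 FPKM in intestine, and Des, desmin, had 34.8 to 51.8 FPKM in lung, 0.757 to 1.44 FPKM in liver and 19.1 to 65.8 FPKM in intestine. For both muscle genes intestine library 2 was above at least 2 of the 3 lungs.

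Markers of tissues next to the lung were also present. Of 8 mesothelial genes, 7 were higher under all 4 scalings, beside 17.3% of all genes tested. Msln, mesothelin, led them at 45.9 to 82.8 FPKM in lung, 0.255 to 1.09 FPKM in liver and 0.454 to 0.877 FPKM in intestine. Upk3b, Wt1, Lrrn4, Gpm6a, Aldh1a2 and Rspo1 were the others, with lung levels of 2.36 to 26.6 FPKM. Krt19, a keratin of many simple epithelia, was the exception, at 82.4 to 141 FPKM in lung, 0.627 to 3.52 FPKM in liver and 697 to 1316 FPKM in intestine. Of 15 listed cardiac muscle genes, 13 passed the filter, mostly through their lung level, and were higher against each organ, 12 of them under all 4 scalings, a count that the filter fixed in large part. Myl7, the atrial myosin light chain, had 195, 221 and 202 FPKM in lung, against 0 in all 3 liver libraries and 10.3, 5.36 and 5.44 FPKM in intestine. Tnnt2, cardiac troponin T, had 161 to 196 FPKM in lung, 0.155 to 1.29 FPKM in liver and 0.264 to 2.13 FPKM in intestine, and the light chain Myl4 and myoglobin gene Mb had 136 to 156 FPKM and 93.3 to 133 FPKM in lung. Nppa, the atrial hormone ANP, had 83.02 to 99.9 FPKM in lung, 0 to 0.6 FPKM in liver and 0 to 0.539 FPKM in intestine. The summed level of the cardiac list was 972 to 1160.05 FPKM in lung, 0.441 to 8.53 FPKM in liver and 17.5 to 32.9 FPKM in intestine. In mice, cardiac muscle also sheathes the pulmonary veins. Whether heart tissue was attached to the lungs was not tested. Skeletal muscle left little trace. Its myosins Myh1, Myh2 and Myh4 and the calcium buffer Pvalb were listed at 0 in all lungs, and of 2 tested genes 1 was higher, the troponin Tnnt3, at 2.67 to 5.72 FPKM in lung, 0 in all 3 liver libraries and 0 in all 3 intestine libraries. Mylpf had 1.02 to 3.39 FPKM in lung and was not called. No chondrocyte gene passed the filter, and Matn1 and Col9a1 were listed at 0 in all lungs.

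Neutrophil genes had the largest median difference of the immune cell lists. Of 14 tested, 13 were higher against each organ under all 4 scalings, beside 17.3% of all genes tested, and none was lower. The median difference was 5.54 against liver and 4.52 against intestine. Ngp, a granule protein of immature neutrophils, had 843, 702 and 819.7 FPKM in lung, against 13.2, 3.28 and 7.001 FPKM in liver and 34.1, 1.86 and 12.2 FPKM in intestine. Camp, the cathelicidin, had 271 to 323 FPKM, Ltf, lactoferrin, had 145 to 175 FPKM and Retnlg had 295 to 517 FPKM in lung. Cxcr2, the receptor through which neutrophils follow CXC chemokines, had 18.7 to 26.2 FPKM in lung, 0.295 to 0.605 FPKM in liver and 0.553 to 1.95 FPKM in intestine. The exception was Lcn2, lipocalin 2, which hepatocytes also make in the acute phase, at 12732, 5218 and 4257 FPKM in lung, against 19234, 14973 and 18229.9 FPKM in liver and 1737, 664 and 1196 FPKM in intestine.

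Among the genes of alveolar macrophages, 11 of 16 were higher (9 under all 4 scalings) and 1 lower, beside 43.8%, 17.3% and 3.18% of all genes tested. Chil3, a chitinase-like protein, had 787, 872 and 976 FPKM in lung, against 10.2, 4.69 and 6.29 FPKM in liver and 24, 5.84 and 9.103 FPKM in intestine. Ear2, a ribonuclease, had 54.6 to 125 FPKM in lung, 2.202 to 3.71 FPKM in liver and 0.17 to 0.94 FPKM in intestine, and Ear1 was listed at 0 in all 6 other libraries with 21.4, 39.4 and 47.9 FPKM in lung. The lower member was Fabp1, a fatty acid binding protein far more abundant in hepatocytes and enterocytes, at 6.62 to 24.6 FPKM in lung, 201 to 2069 FPKM in liver and 229.9 to 982 FPKM in intestine. Fabp4, found in alveolar macrophages, capillaries and fat, had 116, 155 and 798 FPKM in lung, against 145, 64.7 and 99.3 FPKM in liver and 218, 201 and 178 FPKM in intestine, with lung library 3 alone above all others. Marco, a scavenger receptor, was higher in liver, at 44.8, 19.1 and 25.3 FPKM in lung, against 151, 92.2 and 133 FPKM in liver and 2.92, 1.38 and 2.09 FPKM in intestine.

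Kupffer cells, the macrophages of liver, served as a contrast. Their marker Clec4f was listed at 0 in every lung and had 6.63, 5.83 and 3.85 FPKM in liver. Of 8 genes in that list 2 were higher and 1 lower, beside 43.8% and 3.18% of all genes tested. The higher count was 1 without lung library 2 or liver library 2 or 3, and 3 without lung library 3. The 2 higher ones were Cdh5, an endothelial gene, and Folr2, a folate receptor, at 3.71 to 7.27 FPKM in lung, 2.42 to 3.76 FPKM in liver and 0.157 to 0.577 FPKM in intestine. The lower one was Slc40a1, the iron exporter ferroportin, at 3.77 to 4.77 FPKM in lung, 8.11 to 11.4 FPKM in liver and 22.8 to 44.4 FPKM in intestine. Cd5l had 0.572 to 3.77 FPKM in lung, 8.23 to 19.9 FPKM in liver and 0 to 0.037 FPKM in intestine, Vsig4 0.214 to 0.546 FPKM in lung, 2.13 to 6.91 FPKM in liver and 0 in all 3 intestine libraries, and Timd4 1.21 to 4.7 FPKM in lung, 0.796 to 2.17 FPKM in liver and 0.213 to 0.44 FPKM in intestine.

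Monocyte and interstitial macrophage genes were higher for 10 of 14 (7 under all 4 scalings), beside 43.8% and 17.3% of all genes tested. Ly6c2, a marker of inflammatory monocytes, had 154, 126 and 94.02 FPKM in lung, against 2.64, 0.646 and 1.102 FPKM in liver and 5.78, 5.06 and 5.401 FPKM in intestine. Ccr2, their chemokine receptor, had 22.8 to 25.2 FPKM in lung, 0.647 to 0.899 FPKM in liver and 0.495 to 1.39 FPKM in intestine. Plac8, abundant in gut, and Cd14, the co-receptor for lipopolysaccharide, went opposite ways. Plac8 had 386 to 587 FPKM in lung, 38.4 to 62.3 FPKM in liver and 2764 to 4139 FPKM in intestine, and Cd14 had 348, 146 and 56.3 FPKM in lung, against 807, 229 and 705 FPKM in liver and 40.3, 17.98 and 26.1 FPKM in intestine.

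Lymphocyte genes were at low levels. Of 9 tested T and NK cell genes, 7 were higher (4 under all 4 scalings), beside 43.8% and 17.3% of all genes tested. Gzma, granzyme A, had 35.9, 39.3 and 45.2 FPKM in lung, against 1.56, 1.37 and 1.46 FPKM in liver and 5.24, 9.98 and 8.397 FPKM in intestine, and Gzmb had 10.8 to 18.6 FPKM in lung, 0.442 to 1.01 FPKM in liver and 2.84 to 7.51 FPKM in intestine. Nkg7, Klrd1, Prf1, Cd3d and Cd8b1 were the other higher genes, with lung levels of 1.44 to 10.8 FPKM. Cd3g had 3.93 to 4.28 FPKM in lung, 0 to 0.1 FPKM in liver and 1.44 to 4.61 FPKM in intestine and Lck had 2.55 to 4.72 FPKM in lung, 0 to 0.174 FPKM in liver and 0.493 to 3.87 FPKM in intestine, and neither was called. None of 9 tested B and plasma cell genes was called against each organ in the same direction, and 1 was without intestine library 2. Cd79a had 4.58 to 5.92 FPKM in lung, 0 to 0.266 FPKM in liver and 1.196 to 13.5 FPKM in intestine, Cd79b had 8.25 to 13.7 FPKM in lung, 0.077 to 0.301 FPKM in liver and 1.77 to 9.86 FPKM in intestine and Ms4a1 had 1.08 to 1.27 FPKM in lung, 0 to 0.082 FPKM in liver and 0.452 to 6.49 FPKM in intestine. For these 3, intestine library 1 was the lowest intestine and the intestines overlapped the lungs. Jchain, the joining chain of secreted IgA, had 0.353 to 1.95 FPKM in lung, 0 to 0.128 FPKM in liver and 53.96 to 142 FPKM in intestine. Mzb1 and Pou2af1 were above liver and below intestine, and Xbp1 and Sdc1, shared with secretory epithelia, were not called.

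Of 6 tested genes of dendritic and mast cells, 4 were higher (3 under all 4 scalings), beside 43.8% and 17.3% of all genes tested. Ccl17, a chemokine of dendritic cells, had 52.9 to 151 FPKM in lung, 0.253 to 1.95 FPKM in liver and 9.296 to 15.2 FPKM in intestine. Kit, the stem cell factor receptor of mast cells and some endothelium, had 19.1 to 20.9 FPKM in lung, 0.408 to 0.601 FPKM in liver and 3.27 to 4.31 FPKM in intestine. Cd209a and Clec9a, lectins of dendritic cells, had 1.504, 4.64 and 7.74 FPKM and 1.13, 2.83 and 13.3 FPKM in lung. Bst2 and Ccl22 were not called. MHC class II presentation genes were higher for 7 of 10 (5 under all 4 scalings), beside 43.8% and 17.3% of all genes tested. Cd74, the invariant chain, had 371 to 483 FPKM in lung, 14.7 to 27.4 FPKM in liver and 104 to 196 FPKM in intestine. H2-Aa had 332 to 425 FPKM in lung, 7.54 to 11.3 FPKM in liver and 73.8 to 109 FPKM in intestine. H2-Ab1, H2-Eb1, H2-DMb1, H2-DMa and the protease Ctss were the other higher members, while Ciita, H2-Oa and H2-Ob had 1.25 to 3.72 FPKM in lung and did not pass.

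Erythroid and platelet genes were higher for 10 of 11 (8 under all 4 scalings), beside 43.8% and 17.3% of all genes tested. How much of their level came from blood in the tissue was not tested. Hbb-b1, an adult beta globin, had 930.3, 1886 and 2627 FPKM in lung, against 43.01, 58.6 and 66.9 FPKM in liver and 17.99, 15.6 and 24.96 FPKM in intestine, and Hba-a1 had 806 to 1745 FPKM in lung, 26.9 to 33.3 FPKM in liver and 5.21 to 15.7 FPKM in intestine. Globin genes are near-identical copies, and Hba-a2 was at 0.031 FPKM in every lung, so reads may be split unevenly among them. Pf4, platelet factor 4, had 41.8 to 97.1 FPKM in lung, 2.64 to 12.4 FPKM in liver and 3.95 to 30.6 FPKM in intestine, and the platelet integrin Itga2b had 7.29 to 9.35 FPKM in lung. The share of circulating blood in the leukocyte genes above was not tested.

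Of 14 cytokine genes tested, 3 were higher in lung against each organ (2 under all 4 scalings) and none lower, beside 43.8% and 17.3% of all genes tested, and the 3 were Tgfb1, Csf1 and Osm. Without lung library 3 the count was 6, a share near that of all genes. Tgfb1, transforming growth factor beta, had 24.5 to 43.4 FPKM in lung, 3.35 to 4.903 FPKM in liver and 5.28 to 6.83 FPKM in intestine. Il6, the cytokine that drives the hepatic acute phase, had 104, 27.6 and 4.48 FPKM in lung, against 6.28, 0.869 and 4.91 FPKM in liver and 49.95, 1.16 and 45.98 FPKM in intestine. The lungs spanned nearly the full range of all 9 libraries, and neither difference passed (2.56 ± 1.36 from liver with limma adjusted p = 0.108, 0.55 ± 1.36 from intestine with adjusted p = 0.741). Il1b had 303, 215 and 39.8 FPKM in lung, against 26.9, 5.86 and 21 FPKM in liver and 93.9, 17.7 and 80.8 FPKM in intestine, higher than liver (3.10 ± 0.89, adjusted p = 0.00915) and not called against intestine (1.40 ± 0.89, adjusted p = 0.194). Tnf had 20.8, 10.02 and 4.47 FPKM in lung, against 1.81, 0.896 and 0.787 FPKM in liver and 6.31, 7.18 and 3.04 FPKM in intestine, with the lowest lung inside the range of intestine. Il10, an inhibitor of macrophage activation, had 10.2, 5.704 and 1.42 FPKM in lung, against 3.53, 2.64 and 2.07 FPKM in liver and 2.82, 0.435 and 0.709 FPKM in intestine. Il1rn, the IL-1 receptor antagonist, had 19.2 to 140.05 FPKM in lung, 125 to 300.01 FPKM in liver and 5.32 to 45.3 FPKM in intestine. Il33, an alarmin of type 2 cells and endothelium, had 44.4, 30.96 and 42.2 FPKM in lung, against 26.8, 2.85 and 21.8 FPKM in liver and 15.8, 11.4 and 12.6 FPKM in intestine, and liver library 2 stood far below the other livers.

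Most chemokines were at levels that overlapped another organ. Of 24 tested, 6 were higher (3 under all 4 scalings) and none lower, below the 43.8% and 17.3% higher among all genes tested. The 6 were Cxcl15, Ccl17, Cxcl16, Ccl6, Ccl9 and Ccl12. Ccl6, a chemokine of myeloid cells, had 209 to 566 FPKM in lung, 20.8 to 29.3 FPKM in liver and 105 to 250.4 FPKM in intestine, and Cxcl16, a transmembrane chemokine, had 50.8 to 87.5 FPKM in lung, 3.93 to 6.11 FPKM in liver and 15.8 to 27.6 FPKM in intestine. Cxcl1, which recruits neutrophils, had 176, 114 and 18.1 FPKM in lung, against 362, 397 and 562 FPKM in liver and 111, 8.93 and 83.7 FPKM in intestine. Every liver lay above every lung for Cxcl1 (-2.57 ± 1.0, limma adjusted p = 0.037). Cxcl2 had 208, 79.4 and 10.01 FPKM in lung, against 30.4, 4.01 and 22.1 FPKM in liver and 152, 4.05 and 46.7 FPKM in intestine and Ccl2, which recruits monocytes, had 195, 75.2 and 37.6 FPKM in lung, against 65.8, 13.6 and 42.6 FPKM in liver and 168, 49.1 and 115 FPKM in intestine, and neither was called. Cxcl13, which attracts B cells, had 111 to 148 FPKM in lung, 18.8 to 35.6 FPKM in liver and 79.4 to 113 FPKM in intestine.

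**Figure D4:**
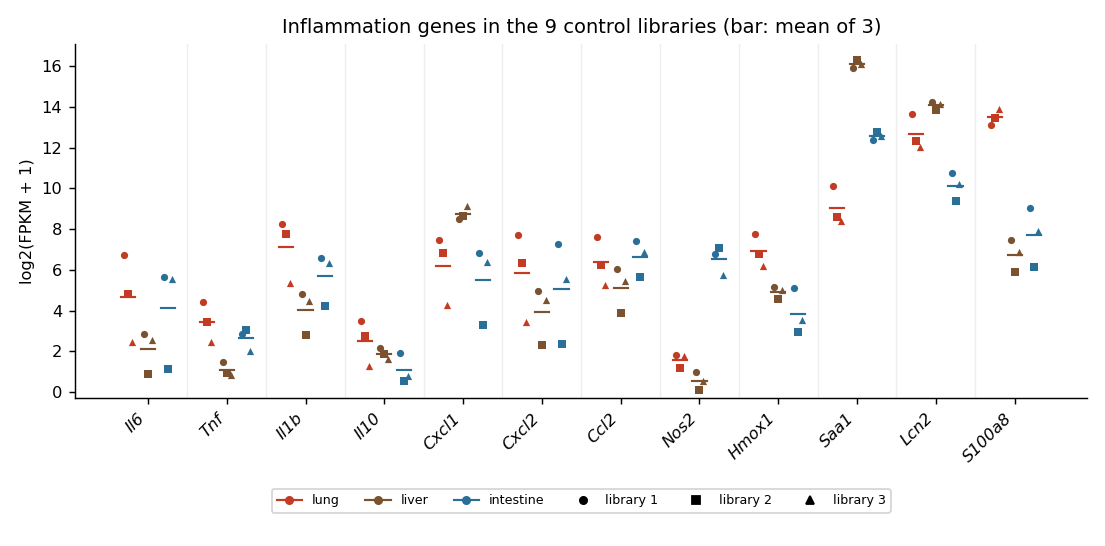
log2(FPKM + 1) of 12 inflammation genes in the 3 control lungs (red), 3 control livers (brown) and 3 control intestines (blue), with a symbol per library number and a bar at the mean of 3. The lungs were widely spread and overlapped another organ for the cytokines and Cxcl2, Saa1 was lowest in lung, and S100a8 and Hmox1 lay above all other libraries in every lung.

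Sensors of microbial products were higher for 9 of 17 (3 under all 4 scalings), which became 6 without lung library 1 or 2. These shares lie near the 43.8% and 17.3% of all genes tested and are no result about the list. Tlr4, the receptor for lipopolysaccharide, had 8.86 to 13.5 FPKM in lung, 0.534 to 0.635 FPKM in liver and 3.26 to 3.69 FPKM in intestine, and Myd88, its adaptor, had 57.9 to 135 FPKM in lung, 22.5 to 25.96 FPKM in liver and 28.9 to 40.6 FPKM in intestine. Casp4, the intracellular sensor of lipopolysaccharide, had 31.4 to 56.3 FPKM in lung, 3.33 to 5.74 FPKM in liver and 58.8 to 62.2 FPKM in intestine, and Lbp, which carries lipopolysaccharide in plasma, had 41.04 to 85 FPKM in lung, 123 to 173 FPKM in liver and 8.36 to 11.4 FPKM in intestine. NF-kB and immediate early genes were higher for 14 of 18 on FPKM, but 3 under all 4 scalings, beside 43.8% and 17.3% of all genes. Under all 4 scalings this share lies near that of all genes and is no result about the list. With 1 library left out at a time, the FPKM counts ran from 10 to 14. Nfkbia, the inhibitor that NF-kB itself induces, had 605, 428 and 304 FPKM in lung, against 48.1, 43.8 and 55.6 FPKM in liver and 228, 109 and 186 FPKM in intestine. Ier3 had 198 to 401 FPKM in lung, 16.1 to 88.7 FPKM in liver and 18.2 to 58.7 FPKM in intestine, Dusp1, a phosphatase of MAP kinases, had 179 to 307 FPKM in lung, 10.7 to 21.5 FPKM in liver and 13.3 to 45.4 FPKM in intestine, and Zfp36, which destabilizes cytokine mRNA, had 152 to 283 FPKM in lung, 46.9 to 87.6 FPKM in liver and 88.1 to 155 FPKM in intestine. The 3 that held under all scalings were Dusp1, Maff and Jun.

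Interferon-induced genes were higher for 2 of 18 (1 under all 4 scalings), below the 43.8% and 17.3% of all genes tested. On FPKM the count was 4 without lung library 3, without liver library 1 or without intestine library 2, and 1 without liver library 3. Ifit3 had 279, 136 and 88.8 FPKM in lung, against 11.99, 5.65 and 5.21 FPKM in liver and 17.1, 23.8 and 22.5 FPKM in intestine. Isg15, a ubiquitin-like protein, had 110.4 to 330.3 FPKM in lung, 30.8 to 182 FPKM in liver and 68.5 to 119 FPKM in intestine, and Irf1 had 93.5 to 129 FPKM in lung, 10.4 to 14.8 FPKM in liver and 59.9 to 164 FPKM in intestine. Iigp1, an interferon-inducible GTPase, had 54.2 to 159 FPKM in lung, 154 to 268 FPKM in liver and 18.1 to 60.2 FPKM in intestine. The median difference of the list was 2.17 against liver and 0.56 against intestine, beside 1.18 and 0.45 for all genes tested.

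Many acute phase genes took an order of liver, lung, intestine. Of 18 tested, 10 were below liver and above intestine with both differences called, beside 1.82% of all genes tested. None was higher against each organ and 1 was lower, beside 43.8% and 3.18% of all genes tested. The median difference was -7.12 against liver and 2.2 against intestine. Hp and Lcn2, given above, followed this order, as did the protease inhibitor Serpina3n, at 821 to 1055 FPKM in lung, 4757 to 9454 FPKM in liver and 119 to 211 FPKM in intestine. Saa1 was the lower gene, at 1125, 388 and 339.6 FPKM in lung, against 62038, 80075 and 70988 FPKM in liver and 5254, 6970.3 and 6044 FPKM in intestine. Orm1, the orosomucoid, had 49.5 to 164 FPKM in lung, 17058 to 23615 FPKM in liver and 6.46 to 9.26 FPKM in intestine, and Hpx, the heme carrier hemopexin, had 15.2 to 24.8 FPKM in lung, 33236 to 38273 FPKM in liver and 0.136 to 1.31 FPKM in intestine. Fibrinogen chains were far below liver, with Fgg at 18.9, 12.5 and 0.169 FPKM in lung, 17466 to 25961 FPKM in liver and 0 to 0.572 FPKM in intestine.

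Of 14 oxidase and nitric oxide synthase genes, 8 were higher (6 under all 4 scalings) and none lower, beside 43.8% and 17.3% higher among all genes tested. The phagocyte oxidase subunit Cyba had 241 to 385 FPKM in lung, 17.5 to 20.3 FPKM in liver and 60.9 to 104 FPKM in intestine, Ncf1 had 56.01 to 87.6 FPKM in lung, 2.51 to 2.99 FPKM in liver and 3.098 to 4.59 FPKM in intestine, and Ncf4 had 27.8 to 55.9 FPKM in lung. Nos2, inducible nitric oxide synthase, had 2.58, 1.25 and 2.38 FPKM in lung, against 0.986, 0.06 and 0.45 FPKM in liver and 108, 132 and 53.1 FPKM in intestine, and Nos3, the endothelial form, had 8.36 to 10.7 FPKM in lung, 0.66 to 3.08 FPKM in liver and 0.958 to 1.28 FPKM in intestine. Duox2, a peroxide-making oxidase, was at 0.02 to 0.048 FPKM in lung and 68.3 to 106 FPKM in intestine, and its relative Duox1 was listed at 0 in all lungs. Of 16 antioxidant and heme genes, 5 were higher (3 under all 4 scalings) and none lower, against 43.8% and 17.3% of all genes tested, so the list did not stand out. Gpx3, the extracellular glutathione peroxidase, had 1412, 1589.9 and 1799.8 FPKM in lung, against 20.7, 17.7 and 26.2 FPKM in liver and 199, 153 and 167 FPKM in intestine. Hmox1, heme oxygenase 1, had 218, 108 and 71.5 FPKM in lung, against 34.6, 22.7 and 31.05 FPKM in liver and 33.3, 6.68 and 10.5 FPKM in intestine, and its call did not hold under all 4 scalings although no lung overlapped another organ. The metallothioneins Mt1 and Mt2 had 3727, 3017 and 903 FPKM and 5106, 3885 and 1163 FPKM in lung and were lowest in library 3. In liver they had 5417 to 6774 FPKM and 5214 to 6232 FPKM. Sod1 had 655 to 1052 FPKM in lung, 811 to 943 FPKM in liver and 486 to 542 FPKM in intestine and was not called.

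Foreign compounds are oxidized in lung mainly by club cells and endothelium, and 10 of 17 cytochrome P450 and flavin monooxygenase genes were higher (7 under all 4 scalings) with 1 lower. Among all genes tested, 43.8% were higher (17.3% under all 4 scalings) and 3.18% lower. Cyp2f2, the club cell enzyme that activates naphthalene, had 860.2, 1281 and 1689.9 FPKM in lung, against 45.3, 28.7 and 25.4 FPKM in liver and 0, 0.085 and 0.054 FPKM in intestine. Aldh1a1, which makes retinoic acid, had 325 to 605 FPKM in lung, 50.03 to 161 FPKM in liver and 54.8 to 76.4 FPKM in intestine, and its call did not hold under all 4 scalings. Cyp2b10 had 325 to 433 FPKM in lung, 4.29 to 14.1 FPKM in liver and 0.082 to 0.363 FPKM in intestine, and Cyp4b1 had 179.7 to 436 FPKM in lung, 5.33 to 6.68 FPKM in liver and 6.89 to 18.1 FPKM in intestine. Fmo2, the flavin monooxygenase of lung, had 139 to 336 FPKM in lung, 0.453 to 1.12 FPKM in liver and 3.49 to 4.23 FPKM in intestine. The hepatic gene Cyp2c29 was listed at 0 in all lungs and intestines. Cyp3a13 was the lower gene, at 2.03 to 3.97 FPKM in lung, 44.9 to 83.6 FPKM in liver and 128 to 261 FPKM in intestine, and 2 were lower without liver library 2.

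Lipid mediators made in lung include prostacyclin, which widens vessels, and leukotrienes. Of 12 tested genes, 8 were higher, all under all 4 scalings, and none lower, beside 43.8% and 17.3% higher among all genes tested. Ptgis, prostacyclin synthase, had 51.6, 69.5 and 59.9 FPKM in lung, against 2.42, 0.79 and 1.105 FPKM in liver and 1.14, 1.64 and 1.01 FPKM in intestine. Hpgd, which inactivates prostaglandins, had 112 to 645 FPKM in lung, 7.84 to 17.03 FPKM in liver and 40.4 to 83.6 FPKM in intestine, and Slco2a1, which takes them up, had 111 to 117 FPKM in lung, 6.37 to 11.7 FPKM in liver and 22.2 to 51.4 FPKM in intestine. Alox5ap, the partner of 5-lipoxygenase, had 192 to 223 FPKM in lung, 2.37 to 4.06 FPKM in liver and 5.08 to 13.4 FPKM in intestine. Ptgs2, the inducible cyclooxygenase, had 4.98 to 11.9 FPKM in lung, 0 to 1.34 FPKM in liver and 1.49 to 16.2 FPKM in intestine and was not called.

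Oxygen sensing differed by gene rather than as a list, with 6 of 16 higher (3 under all 4 scalings) and 2 lower, near the shares of all genes for the higher ones. The higher count was 3 without lung library 3 and 5 without lung library 1. It was 4 without lung library 2, liver library 2 or 3, or intestine library 2 or 3. Epas1, the HIF-2 alpha subunit of endothelium and type 2 cells, had 418, 558 and 582 FPKM in lung, against 35.2, 31 and 39.4 FPKM in liver and 45.02, 26.3 and 36.4 FPKM in intestine, against a Hif1a level of 95.5, 48.4 and 20.7 FPKM in lung that was not called. Vegfa, the vascular growth factor, had 116 to 119.6 FPKM in lung, 13.5 to 19.5 FPKM in liver and 16.9 to 30.4 FPKM in intestine. The lower genes were Ldha, lactate dehydrogenase, at 294 to 444 FPKM in lung, 733 to 1116 FPKM in liver and 559 to 767 FPKM in intestine, and Egln3, an oxygen-dependent hydroxylase, at 1.06 to 1.32 FPKM in lung, 2.102 to 4.04 FPKM in liver and 14.2 to 26.5 FPKM in intestine. Pgk1, a glycolytic enzyme, had 139 to 193 FPKM in lung, 186 to 259 FPKM in liver and 197 to 309.7 FPKM in intestine. Clock and glucocorticoid-response genes were higher for 11 of 16 (6 under all 4 scalings), beside 43.8% and 17.3% of all genes tested. Tsc22d3, a glucocorticoid-induced leucine zipper protein, had 179, 190.5 and 278 FPKM in lung, against 7.59, 17.7 and 5.695 FPKM in liver and 41.8, 20.8 and 33.5 FPKM in intestine. Tef, a clock output factor, had 16.3 to 53.6 FPKM in lung, 1.56 to 7.599 FPKM in liver and 1.99 to 8.72 FPKM in intestine, while Fkbp5 had 61.7 to 85.6 FPKM in lung, 22.6 to 29.7 FPKM in liver and 56.9 to 79.8 FPKM in intestine and Sgk1 had 78.3 to 152 FPKM in lung, 8.67 to 16.1 FPKM in liver and 77.8 to 295 FPKM in intestine.

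The respiratory chain gave 2 higher genes of 17 and none lower on FPKM, beside 43.8% and 3.18% of all genes tested. Both were tissue-specific subunits, Cox4i2, given above, and Cox6a2, the heart form. Cox6a2 had 79.3 to 88.4 FPKM in lung, 0.341 to 1.65 FPKM in liver and 0 to 0.192 FPKM in intestine. Under median-of-ratios scaling 2 were higher and 13 lower, beside 20.2% and 14.4% of all genes, so the calls of the rest depended on the scaling. The median difference of the list on FPKM was 0.16 against liver and -0.44 against intestine, beside 1.18 and 0.45 for all genes tested. The general subunits Cox4i1, Ndufa4 and Cox6a1 had 593 to 623 FPKM, 437 to 528 FPKM and 404 to 497 FPKM in lung. Atp5b, an ATP synthase subunit, had 366 to 398 FPKM in lung, 359.96 to 411 FPKM in liver and 764 to 803 FPKM in intestine. Mitosis genes mostly showed lung between the other organs, with 10 of 12 above liver and below intestine, beside 8.11% of all genes tested. None was called in 1 direction. Top2a, the topoisomerase of dividing cells, had 4.03 to 9.197 FPKM in lung, 0.152 to 0.268 FPKM in liver and 30.5 to 36.99 FPKM in intestine, and Birc5, survivin, had 8.56 to 12.96 FPKM in lung, 0.319 to 0.801 FPKM in liver and 15.1 to 28.8 FPKM in intestine. Ccna2, a cyclin, had 5.76 to 7.11 FPKM in lung, 0.555 to 0.965 FPKM in liver and 15.9 to 24.04 FPKM in intestine. Pcna, the sliding clamp of DNA replication, had 99.4 to 121 FPKM in lung, 16.2 to 29.8 FPKM in liver and 76.4 to 112 FPKM in intestine.

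Genes lower in lung than in both other organs were led by those that liver and intestine share for handling lipoproteins. Of 17 tested lipoprotein and fat absorption genes, 10 were lower, all under all 4 scalings, beside 3.18% and 3.17% of all genes. None was higher. Apoa1 (chromosome 9, bases 46228580 to 46230466), the main protein of high density lipoprotein, had 0.335, 1.78 and 0.19 FPKM in lung, against 4403, 3710.1 and 4444 FPKM in liver and 6078, 3061 and 5041 FPKM in intestine, a difference of -11.31 ± 0.34 from liver (limma, adjusted p = 1.03e-08) and -11.43 ± 0.34 from intestine (adjusted p = 9.19e-09). Apob, the scaffold of chylomicrons and very low density lipoprotein, had 0.471, 0.513 and 0.303 FPKM in lung, against 467, 377 and 369.7 FPKM in liver and 734, 330.5 and 493 FPKM in intestine. Apoa4 had 0 in all 3 lung libraries, against 140.2, 302 and 191 FPKM in liver and 1764, 375 and 738 FPKM in intestine. The intestinal fatty acid binding protein Fabp2 had 0 to 0.49 FPKM in lung, 47.97 to 81.6 FPKM in liver and 451 to 1043 FPKM in intestine, Cideb, which matures lipoprotein particles, had 1.08 to 1.36 FPKM in lung, 95.02 to 119 FPKM in liver and 146 to 196 FPKM in intestine, and the secreted phospholipase-like Pla2g12b had 0.087 to 0.324 FPKM in lung, 62.7 to 76.6 FPKM in liver and 93.6 to 100.4 FPKM in intestine. Apoe went another way, at 322 to 455 FPKM in lung, 3849 to 6644 FPKM in liver and 106 to 127 FPKM in intestine, as did the receptor Scarb1, at 35.8 to 78.5 FPKM in lung, 37.8 to 47.9 FPKM in liver and 2.73 to 4.32 FPKM in intestine. Apoc2, the activator of lipoprotein lipase, had 25.8 to 31.4 FPKM in lung, 381 to 683 FPKM in liver and 21.97 to 57.4 FPKM in intestine, and Dgat1, which makes triglyceride, had 19.7 to 26.6 FPKM in lung, 5.27 to 9.76 FPKM in liver and 73.4 to 101 FPKM in intestine.

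The others among the 12 genes with the largest deficit were enzymes, factors and a lectin. Cps1, the first enzyme of the urea cycle, had 0, 0.026 and 0 FPKM in lung, against 75.2, 105 and 35.5 FPKM in liver and 43.3, 92.7 and 58.2 FPKM in intestine, and the carboxylesterase Ces2a had 0 to 0.045 FPKM in lung, 56.8 to 134 FPKM in liver and 35.5 to 44.3 FPKM in intestine. Reg3b, an antibacterial lectin, had 4.59, 0.632 and 0 FPKM in lung, against 473, 458 and 177 FPKM in liver and 89213, 92036 and 93299 FPKM in intestine, and it may share reads with Reg3g. Hnf4a (chromosome 2, bases 163506808 to 163572910), the nuclear receptor that maintains liver and gut epithelium, had 0, 0.067 and 0.018 FPKM in lung, against 165, 139.9 and 145 FPKM in liver and 229, 162 and 160.1 FPKM in intestine. Creb3l3, a membrane-bound factor for lipid and acute phase genes, had 0.042, 0.067 and 0.036 FPKM in lung, against 144, 132 and 106 FPKM in liver and 237, 73.6 and 171 FPKM in intestine. That no lung overlapped another organ was a condition for choosing these 12 genes.

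Liver and gut transcription factors were lower for 9 of 16, all under all 4 scalings, beside 3.18% and 3.17% of all genes. None was higher. Nr1h4, the bile acid receptor FXR, had 0.462, 0.211 and 0.252 FPKM in lung, against 41.1, 46.2 and 26.95 FPKM in liver and 183, 119.9 and 170.2 FPKM in intestine. Nr1i2, the xenobiotic receptor PXR, had 0.489 to 0.983 FPKM in lung, 7.27 to 15.6 FPKM in liver and 24.2 to 36.6 FPKM in intestine, and Ppara, the receptor for fatty acids, had 0.81 to 1.72 FPKM in lung, 5.84 to 13.6 FPKM in liver and 4.21 to 5.85 FPKM in intestine. Cdx1 and Cdx2, the factors of gut identity, were listed at 0 in all lungs and livers, and Onecut1 was at 0 in all lungs and intestines. Gata4 was above intestine and below liver, at 0.524 to 0.822 FPKM in lung, 2.06 to 3.32 FPKM in liver and 0.136 to 0.184 FPKM in intestine.

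Promoters of 3 of the lipoprotein and fat absorption genes low in lung, Apoa1, Apob and Fabp2, are printed as above, to set beside those of the lung genes. They were chosen among the 12 genes with the largest deficit for holding a FOXA string, after their values were seen.
Apoa1, chr9:46228380-46228629, plus strand: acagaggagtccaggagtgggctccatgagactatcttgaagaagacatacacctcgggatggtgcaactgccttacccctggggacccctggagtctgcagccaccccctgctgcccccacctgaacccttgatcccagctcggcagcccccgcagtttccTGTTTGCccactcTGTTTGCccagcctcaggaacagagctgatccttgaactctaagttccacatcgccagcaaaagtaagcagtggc
Apob, chr12:7977427-7977676, plus strand: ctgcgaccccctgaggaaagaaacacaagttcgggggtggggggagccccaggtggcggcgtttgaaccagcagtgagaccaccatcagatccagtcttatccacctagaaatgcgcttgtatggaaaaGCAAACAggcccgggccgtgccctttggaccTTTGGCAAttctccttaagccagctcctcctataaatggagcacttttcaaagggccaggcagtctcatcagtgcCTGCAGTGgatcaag
Fabp2, chr3:122894822-122895071, plus strand: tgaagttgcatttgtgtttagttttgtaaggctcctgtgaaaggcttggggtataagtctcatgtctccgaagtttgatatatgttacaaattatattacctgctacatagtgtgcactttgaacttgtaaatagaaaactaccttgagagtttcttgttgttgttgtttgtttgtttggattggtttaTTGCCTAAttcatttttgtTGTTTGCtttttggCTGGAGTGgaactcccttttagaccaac
Apoa1 held FOXA strings 88 and 75 bases upstream of the start. Apob held, on the opposite strand, a FOXA string 121 bases, a C/EBP string 90 bases and an NKX2-1 string 15 bases upstream. Fabp2 held a C/EBP string 61 bases, a FOXA string 42 bases and, on the opposite strand, an NKX2-1 string 28 bases upstream, so the string of the lung factor was also found before genes low in lung. FOXA strings stood in 21.3% of promoters of genes at least 4-fold lower, 17.7% of those at least 4-fold higher and 14% of all tested genes, and C/EBP strings in 14.9%, 11.1% and 8.13% of the same sets. All RefSeq promoters held these at 17.9% for FOXA and 9.55% for C/EBP.

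Markers of the other organs were low in lung but not always at 0. Of 14 hepatocyte genes, 6 were lower against each organ, all under all 4 scalings, 3 were below liver and above intestine, and 5 were not called against each. By comparison, 3.18% of all genes tested were lower (3.17% under all 4 scalings) and 1.82% were below liver and above intestine. Fgb, a fibrinogen chain, had 1.34, 9.48 and 0 FPKM in lung, against 34435, 21485 and 29336 FPKM in liver and 1.29, 0.15 and 0.317 FPKM in intestine, and Fga had 0.071 to 6.75 FPKM in lung, 12288 to 19988 FPKM in liver and 1.299 to 2.68 FPKM in intestine. Cyp2e1, which oxidizes ethanol, had 6.28 to 13.3 FPKM in lung, 616 to 856 FPKM in liver and 1.08 to 3.01 FPKM in intestine, and Tat, a tyrosine-degrading enzyme, had 2.46 to 9.53 FPKM in lung, 697 to 1104 FPKM in liver and 74.3 to 116 FPKM in intestine. Lung library 2 was the highest lung for 12 of these 14 genes, beside 3156 of all 13238 genes tested. Of 13 enterocyte and goblet cell genes, 3 were lower, and the brush border peptidase Anpep had 18.8 to 22.2 FPKM in lung, 18.1 to 26.9 FPKM in liver and 932 to 1161 FPKM in intestine. Olfm4, a stem cell glycoprotein, had 6.71 to 8.66 FPKM in lung, 0.106 to 1.302 FPKM in liver and 28.1 to 49.4 FPKM in intestine. The sugar transporter Slc5a1 had 1.27 to 7.02 FPKM in lung, 0.245 to 0.261 FPKM in liver and 230.02 to 488 FPKM in intestine, and the goblet cell protein Clca1 had 0.191 to 4.52 FPKM in lung, 0 to 0.137 FPKM in liver and 587 to 729 FPKM in intestine. Alpi, intestinal alkaline phosphatase, was listed at 0 in all lungs. Of 9 Paneth cell genes 1 was lower, the protease Mmp7, at 0 in all lungs. The defensin genes are near-identical copies. Defa24 had 0 to 0.528 FPKM in lung, 0 to 0.746 FPKM in liver and 11109.9 to 20842 FPKM in intestine, Defa17 and Defa21 were at 0 in all lungs, and Defa22 and Ang4 reached at most 0.414 FPKM and 0.286 FPKM there. Itln1, a lectin, had 0.375 to 0.638 FPKM in lung, 0 to 0.08 FPKM in liver and 1371 to 1579.5 FPKM in intestine. Lyz1, the Paneth lysozyme, had 577 to 829 FPKM in lung, 1.44 to 2.47 FPKM in liver and 3867 to 5741 FPKM in intestine, and reads shared with Lyz2 cannot be told apart.

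Some genes went opposite ways against the other organs. The 5 genes with the largest smaller difference above liver and below intestine were Cldn7, Epcam, Gpx2, Ckmt1 and Serpinb1a. Epcam, an adhesion molecule of epithelia, had 54.04, 41.5 and 35.5 FPKM in lung, against 0.563, 0.37 and 0.875 FPKM in liver and 869, 654 and 863 FPKM in intestine. Cldn7 had 33.8 to 48.1 FPKM in lung, 0.294 to 1.05 FPKM in liver and 655 to 973 FPKM in intestine, Gpx2, an epithelial glutathione peroxidase, had 38.1 to 169 FPKM in lung, 0 to 2.43 FPKM in liver and 1336 to 1568 FPKM in intestine, and the mitochondrial creatine kinase Ckmt1 had 15.5 to 21.5 FPKM in lung, 0 to 1.19 FPKM in liver and 285 to 381 FPKM in intestine. Serpinb1a, an inhibitor of neutrophil proteases, had 29.8 to 40.5 FPKM in lung, 0.267 to 2.31 FPKM in liver and 349 to 731 FPKM in intestine. On the other side stood Itih4, Apoc1, Hamp, Mat1a and Hpx. Itih4, a plasma inhibitor subunit, had 88.4, 22 and 26.98 FPKM in lung, against 6436, 4977 and 5564 FPKM in liver and 0.177, 0.144 and 0.061 FPKM in intestine. Hamp, the iron hormone hepcidin, had 23.9 to 83.8 FPKM in lung, 4536 to 8225 FPKM in liver and 1.86 to 3.15 FPKM in intestine, Apoc1 had 74.4 to 90.1 FPKM in lung, 5268 to 6546 FPKM in liver and 1.55 to 7.097 FPKM in intestine and Mat1a, a methionine cycle enzyme, had 3.49 to 27.2 FPKM in lung, 883 to 1770.04 FPKM in liver and 0 in all 3 intestine libraries.

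The 3 lungs were not alike in inflammation. The median tested gene ranged over 0.37 on the log2 scale among the lungs, and 235 genes (1.78%) ranged over at least 2. Over all genes tested, lung library 1 was the highest lung for 38.2% and lung library 3 for 36.6%, and lung library 2 for 3156 of 13238. Library 1 was the highest lung for 13 of 14 cytokine genes, 19 of 24 chemokines, 15 of 17 genes of microbial sensing, 15 of 18 NF-kB and immediate early genes, 15 of 18 interferon genes and 14 of 18 acute phase genes. The median deviation of the cytokine list from the mean of the lungs was 0.99 in library 1, 0.01 in library 2 and -0.76 in library 3, and that of the chemokines was 1.06, -0.12 and -0.72. These are descriptions of 3 libraries without a test.

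Library 3 stood apart in another set. All 7 tested adipocyte genes were highest there, with median deviations of -1.0 in library 1, -0.46 in library 2 and 1.54 in library 3. Adipoq, the fat hormone adiponectin, had 2.04, 2.58 and 19.6 FPKM, and Plin1, the lipid droplet coat of fat cells, 0.581, 0.716 and 13.3 FPKM in lung. Ucp1, the uncoupling protein of brown fat, had 0.061, 0 and 74.5 FPKM in lung and 0 in all 6 other libraries, the largest range among lungs. Cfd, Retn, Cidec and Plin4 were the other 4 tested, with lung levels of 4.199 to 88.5 FPKM. Whether fat was attached to lung 3 was not tested. Pck1, which makes glycerol in fat, had 0.362, 0.433 and 25.6 FPKM in lung. Library 3 was also the highest lung for 11 of 13 ciliated, 10 of 15 pan-endothelial and 12 of 17 cytochrome P450 genes, and library 2 for 11 of 13 cardiac genes. Over all genes tested, library 3 was highest for 36.6% and library 2 for 3156 of 13238. None of the adipocyte genes was called in the same direction against each organ, although 1 was lower without lung library 3 and 1 was higher without liver library 1.

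The 10 genes with the largest range among lungs, of those averaging at least 5 FPKM there, were Ucp1, Ccl20, Cxcl3, Csf3, Pck1, Il6, Cxcl2, Il4i1, Fgg and Mcoln2. Ccl20, which attracts dendritic cells and lymphocytes, had 47.97, 0.589 and 5.38 FPKM in lung, against 0.881, 0.259 and 0.276 FPKM in liver and 8.06, 26.4 and 7.29 FPKM in intestine. Csf3, the growth factor G-CSF that releases neutrophils from marrow, had 66.8, 20.1 and 1.35 FPKM in lung, against 17.6, 0.528 and 10.8 FPKM in liver and 83.9, 2.78 and 60.02 FPKM in intestine, and Cxcl3 had 1.01 to 57.1 FPKM in lung, 0.189 to 7.55 FPKM in liver and 2.44 to 85.3 FPKM in intestine. In intestine, library 2 was the lowest for Csf3 and Cxcl3, as it was for Il6. Il4i1, an amino acid oxidase of antigen-presenting cells, had 24.5, 0.479 and 0.51 FPKM in lung, and the lysosomal channel Mcoln2 had 37.9, 13.01 and 1.61 FPKM. None of these 10 was called in the same direction against each organ.

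**Figure D5:**
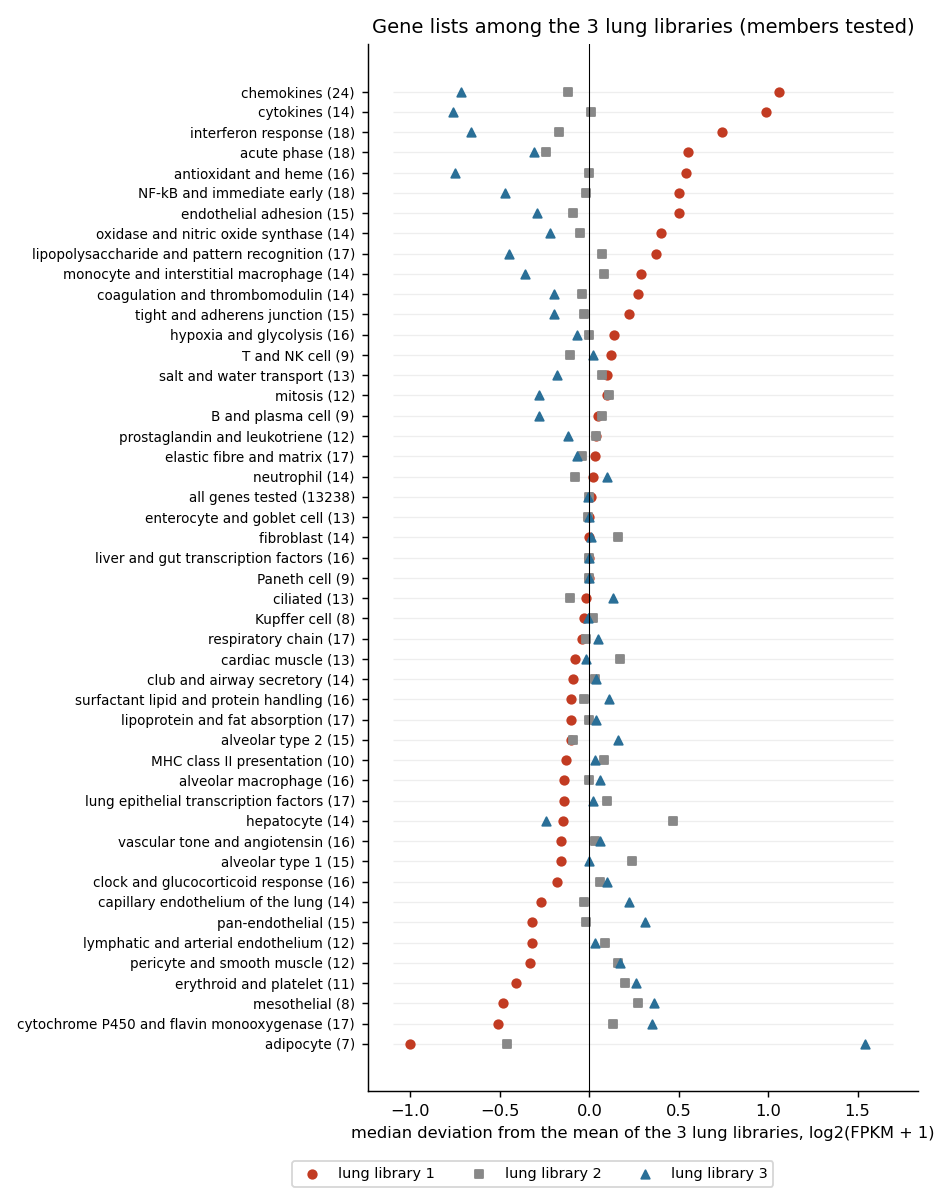
For each gene list drawn (members tested in brackets), the median deviation of its members in log2(FPKM + 1) from the mean of the 3 control lungs is given for lung library 1 (red circle), 2 (grey square) and 3 (blue triangle). Lists with few tested members are not drawn. Cytokines and chemokines lie near 1 in library 1 and below -0.7 in library 3, adipocyte genes lie at -1.0 in library 1 and 1.54 in library 3, and the row of all genes tested lies at 0.01, 0.00 and -0.01.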

How the data were processed

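Tissue RNA was extracted with the miRNeasy Micro kit and sequenced from TruSeq stranded mRNA libraries, per the labels' protocols. The authors deposited 1 FPKM value per gene symbol and library. They named Cufflinks 2.2.1, SAMtools 0.1.19, TopHat2 2.0.13, Bowtie2 2.2.3 and the build mm10, per the submitters' processing notes, and the annotation and options are not given in the sources used here. In the control lung 2 file a second per-sample column was not used (1 column in all). FPKM carry no counts, so their depth was estimated from the step between low values of 126 to 159 genes per library with 1 transcript of over 1000 bases, which slightly understates it, and no counting interval is given.

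Groups were taken from the sample titles. Genes with a mean of at least 1 FPKM over the 9 libraries were fitted as log2(FPKM + 1) with limma 3.58.1 (R 4.3.3), 1 mean per organ, empirical Bayes with trend, two-sided, Benjamini-Hochberg over 13238 genes, after the fit was tested on simulated data. Python 3.11.15 was used for tables. Alternatives were the pseudocount (0.1 and 5), the filter (none and 5), scaling, trend, robust and weighted fits, a replicate block, each organ alone, an adjusted p under 0.01 and leaving out each library. The members, the 51 gene lists (619 symbols tested) and the 3 motifs were chosen with earlier results of these data known. Positions are from GENCODE vM21 on mm10 and promoters from RefSeq on GRCm38.p6, the same build; of 13238 tested genes 10010 had a promoter. Named were the 15 highest and 12 lowest genes by their smaller difference, among 4-fold calls with no overlap between lung and other libraries. For each list, the 4 with the highest mean lung FPKM and up to 2 called against the majority were added. Those at 0 in all lungs and all members of lists with 10 or fewer tested were also named. So were 12 inflammation genes, the 10 widest ranges among lungs, the 5 highest lung means and 5 genes of each opposite pattern. Any other gene named was chosen after its values were seen. Some genes that the rule names are not reported here.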

Additional observations from a re-analysis of the deposited data

How the results depend on the processing

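Scaling, the pseudocount and the filter moved the counts. Median-of-ratios scaling gave 3598 genes higher and 3438 lower in lung than the mean of both organs, 2669 and 1903 against each organ, and 748 and 191 at 4-fold or more. Quantile normalization gave 3720 and 3863, 2691 and 2106, and 707 and 207 in the same order. Called under all 4 scalings were 2287 genes higher against each organ and 646 at 4-fold or more, an alternative chosen after seeing the data. Requiring a mean of at least 5 FPKM, which tests fewer genes, left 5166 higher against the mean, 3648 against each organ and 925 at 4-fold. At 4-fold, a pseudocount of 5 left 574 higher and 47 lower, and one of 0.1 gave 188 lower. Under the other settings no count moved by more than 1.5 times.

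Leaving out 1 library at a time gave 7606 to 7904 genes higher and 796 to 907 lower than the mean, 5223 to 5822 and 360 to 429 against each organ, and 1396 to 1431 and 115 to 123 at 4-fold. Over named genes and settings, 5866 differences from the mean of both organs were counted as unchanged, 101 lost their call and 79 gained one. Another 11, called in the main fit, changed sign. A changed sign was counted as unchanged where the main fit had no call. Those 11 were, at a pseudocount of 0.1, Itih4 (0.09) and Mat1a (0.17). After quantile normalization they were Resp18 (-0.15), Timd4 (-0.06), Cldn3 (-0.02) and H2-Ob (-0.02). After median-of-ratios scaling they were Sdc1 (-0.29), Dcn (-0.02), Cldn3 (-0.46), Lbp (-0.23) and Fkbp5 (-0.19), all on the log2 scale. The cause was not tested. With the replicate block, 7901 genes were higher and 866 lower than the mean, and 5749 and 428 against each organ. Whether same-numbered libraries share a mouse was not settled by the values. Deviations of same-numbered libraries correlated at -0.183 to 0.212 (9 pairs), those of differently numbered ones at -0.237 to 0.266 (18 pairs). Between liver and intestine, same-numbered libraries correlated at 0.184, 0.212 and 0.098, and differently numbered ones at -0.172 to 0.001. Same-numbered lung and liver libraries correlated at 0.135, -0.051 and -0.183, and those of lung and intestine at 0.183, -0.091 and -0.061. Lung library 3 correlated at 0.266 with liver library 2 and at 0.244 with intestine library 2.

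With depth only estimated and 3 libraries per organ, levels near 0 FPKM have no interval, and a listed 0 does not show that a gene was silent.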
